A study of Homo sapiens with 6 samples.

Results

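BCL6, BACH2, MEF2B, MEF2C, PRDM1, XBP1 and SDC1 are 7 genes of the switch by which a germinal centre B cell becomes an antibody-secreting plasma cell. They were picked by symbol from the rows of the deposited tables, 7 genes of the 56539 symbols present in every library. All 7 had a row in each of the 6 libraries. Of these genes 6 had rows of their own and were tested among 10663 genes, while MEF2B always shared a row with MEF2BNB and MEF2BNB-MEF2B and was described without a test.

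Polyadenylated RNA came from 2 untreated human B cell lymphoma lines at passages 10 to 15, LY19WT and LY19Y646F, with 3 libraries each. LY19WT is labelled as wild type for EZH2, the methyltransferase of Polycomb repressive complex 2, while LY19Y646F carries EZH2-Y646F driven constitutively by a CMV promoter. Gene-level FPKM do not separate mutant from endogenous EZH2, which the authors' deposited table lists at 82.6 and 89.8 FPKM. The labels do not say whether the mutant line is 1 clone or a pool, nor whether replicates came from separate cultures, so the spread behind each p-value may be technical. The unit is FPKM, fragments per kilobase of transcript, scaled to the mapped fragments of the library. The number of reads behind each library is not given in the sources used here.

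In the germinal centre, BCL6 represses genes of activation and of plasma cell fate, PRDM1 among them, and BACH2 also represses PRDM1. MEF2B and MEF2C are MADS-box activators, and BCL6 is a known target of MEF2B in germinal centre cells. When PRDM1 (also called BLIMP1) is induced it silences the B cell programme, XBP1 then expands the secretory pathway, and the heparan sulphate proteoglycan SDC1 (CD138) appears on the plasma cell surface.

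Across these genes the repressor BCL6 was higher in LY19Y646F, with a call that was lost under 8 of 15 alternatives, while MEF2C and the plasma cell genes PRDM1, XBP1 and SDC1 were lower. Not all plasma cell markers were lower, since rows naming IGJ, IRF4 and TNFRSF17 were higher in LY19Y646F. BCL6 averaged 72.0 ± 48.2 FPKM in LY19Y646F and 14.6 ± 10.6 FPKM in LY19WT, and PRDM1 averaged 0.133 ± 0.0723 and 6.29 ± 0.392 FPKM (SD, n = 3 each). BACH2 did not pass the test. A gene was called when its limma p, adjusted over all tested genes by the Benjamini-Hochberg method, was under 0.05. On that rule 1 of the 6 tested genes was called higher and 4 were called lower, where 16.7% of the 10663 tested genes passed as higher and 16.5% as lower (33.2% in either direction). The libraries of the lines did not overlap for 5 of the 6, as for 48.6% of the 10663. PRDM1 and SDC1 passed the level needed for testing only through LY19WT, so the count is a description and does not set these genes apart.

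**Figure D1:**
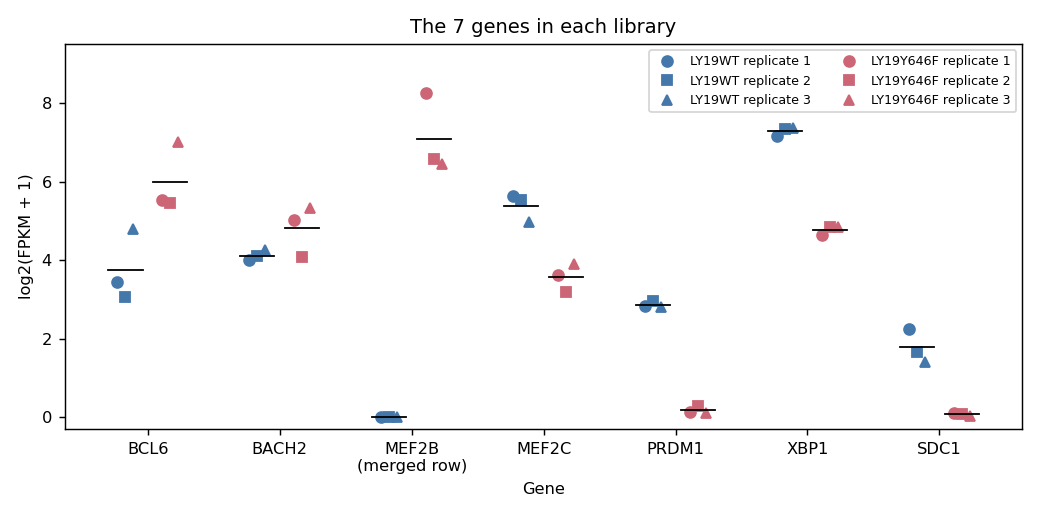
Level of each gene as log2(FPKM + 1) in the 3 LY19WT libraries (blue) and the 3 LY19Y646F libraries (red), with a bar at the mean of each line and 1 marker shape per replicate number. BCL6 lies higher and MEF2C, PRDM1, XBP1 and SDC1 lie lower in every LY19Y646F library, the BACH2 values overlap, and the merged row of MEF2B is listed at 0 in LY19WT.

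The libraries of the lines also differed in markers of B cell stage. The summed FPKM of the precursor B cell genes DNTT, VPREB1, IGLL1, RAG1, RAG2 and CD34 lay between 781 and 2345 in LY19WT and between 1.76 and 5.73 in LY19Y646F, with CD34 under 1 FPKM throughout. The mature B cell antigen gene MS4A1 (CD20) lay between 0.0688 and 0.140 FPKM in LY19WT, but between 83.1 and 118 FPKM in LY19Y646F, while CD79B (140 to 337 FPKM) was present in all 6 libraries. These stage markers moved with the lines in all results below, and their part in those results was not tested. Whether the lines share an origin apart from the EZH2 transgene was not tested, so in every comparison the transgene and any other difference between the lines cannot be told apart. In bulk RNA, fewer cells of a type and less RNA per cell cannot be told apart. In LY19WT replicate 3 the 10 highest rows held 27.5% of summed FPKM, against 5.71% to 9.38% in the other libraries. Each gene kept its direction under both rescalings of the libraries.

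The promoters of BCL6 and PRDM1 are shown because the data of this pair move in opposite directions and both proteins bind DNA. Each line gives the 250 bases before a RefSeq transcript start on GRCh38.p14, read 5′ to 3′ along the gene. Capitals mark matches to a short motif on either strand.

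BCL6, upstream start, chr3:187745469-187745718, reverse strand: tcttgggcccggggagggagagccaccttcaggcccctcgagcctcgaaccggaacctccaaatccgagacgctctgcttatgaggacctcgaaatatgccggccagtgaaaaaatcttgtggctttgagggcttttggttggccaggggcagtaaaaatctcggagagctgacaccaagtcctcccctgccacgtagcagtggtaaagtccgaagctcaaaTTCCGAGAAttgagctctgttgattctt
BCL6, downstream start, chr3:187736502-187736751, reverse strand: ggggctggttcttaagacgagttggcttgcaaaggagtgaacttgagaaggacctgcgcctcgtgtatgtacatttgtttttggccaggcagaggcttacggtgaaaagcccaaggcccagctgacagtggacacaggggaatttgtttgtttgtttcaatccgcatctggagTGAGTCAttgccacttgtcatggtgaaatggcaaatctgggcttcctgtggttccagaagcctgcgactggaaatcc
PRDM1, upstream start, chr6:106086086-106086335, forward strand: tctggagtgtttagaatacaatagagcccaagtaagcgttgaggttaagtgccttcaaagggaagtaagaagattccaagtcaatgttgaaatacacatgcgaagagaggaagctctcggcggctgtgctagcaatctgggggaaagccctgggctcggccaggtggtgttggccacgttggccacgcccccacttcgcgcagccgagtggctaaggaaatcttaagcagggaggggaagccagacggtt
PRDM1, downstream start, chr6:106098691-106098940, forward strand: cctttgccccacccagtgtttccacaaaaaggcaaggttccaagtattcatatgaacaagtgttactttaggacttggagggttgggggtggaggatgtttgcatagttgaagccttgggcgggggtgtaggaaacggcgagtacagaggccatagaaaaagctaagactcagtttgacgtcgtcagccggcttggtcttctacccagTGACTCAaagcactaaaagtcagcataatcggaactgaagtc

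Of 5 motifs searched on both strands, the BCL6 promoter at the upstream start held TTCNNNGAA, the core of the motif of BCL6 and of STAT factors, 28 bases before the start, as TTCCGAGAA. The downstream start of BCL6 held TGANTCA, the core shared by BACH and AP-1 factors, 77 bases before the start. The downstream start of PRDM1 held the same core 42 bases before the start, and the upstream start of PRDM1 held none of the 5. TTCNNNGAA occurs in 6.57% and TGANTCA in 6.57% of the 35116 windows of this length in the RefSeq table. The other motifs were AGNGAAAG (PRDM1 and IRF factors, 6.57% of windows), GACGTG (XBP1, 6.5%) and the MEF2 core (2.36%), which matched in none of the windows of the 7 genes. Outside BCL6 and PRDM1, the windows of BACH2, MEF2B, XBP1 and SDC1 held no match to the 5 motifs, and 1 of the 7 windows of MEF2C held TGACTCA at 64 and at 37 bases before its start. These matches are descriptions of sequence. No binding was measured.

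BCL6 (hg19 chromosome 3, 187439165 to 187463515), the zinc finger repressor that maintains the germinal centre state, measured 9.82, 7.34 and 26.8 FPKM in LY19WT replicates 1, 2 and 3. In LY19Y646F it measured 45.7, 42.6 and 128 FPKM. The lines did not overlap, and replicate 3 was the highest library in each. The highest BCL6 library was 3.64 times the lowest in LY19WT and 2.999 times in LY19Y646F. The 95% bounds of Cufflinks were narrower than that spread: LY19WT replicate 3 was bounded by 24.1 and 29.5 FPKM, above the bounds of 9.195 and 10.4 FPKM in replicate 1. The difference was 2.24 on the log2(FPKM + 1) scale (SE 0.637, limma adjusted p of 0.047), and the exact two-sided permutation p was 0.10, the smallest that 3 libraries against 3 can give. By replicate number the differences were 2.11, 2.38 and 2.21, so BCL6 was higher in LY19Y646F by nearly the same amount at each number. Whether equal numbers pair the libraries is not settled. The call was lost without any 1 of 5 libraries, with limma adjusted p between 0.070 and 0.13 (0.13 without LY19WT replicate 1, 0.13 without LY19WT replicate 2, 0.070, 0.078 and 0.10 without LY19Y646F replicates 1, 2 and 3), and it remained without LY19WT replicate 3 (adjusted p of 0.031). It was also lost without a filter on low values, with merged rows counted and with quantile scaling, at limma adjusted p of 0.076, 0.062 and 0.051.

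Transcribed rows also overlapped BCL6. RP11-211G3.2, a non-coding gene whose rows overlap BCL6, was listed at 0 in each LY19WT library, and rows naming it held 3.35, 6.53 and 4.48 FPKM in LY19Y646F. In replicates 1 and 3 of LY19Y646F that row was merged with RP11-211G3.3. The libraries were made with a stranded kit, but whether the counting used strand is not given in the sources used here, so reads of BCL6 and of overlapping transcripts may not be told apart. The authors' deposited table gives RP11-211G3.2 as 0.414 FPKM in LY19WT, against 2.90 FPKM in LY19Y646F. Unnamed assembled rows inside BCL6 reached 37.7 FPKM in LY19Y646F replicate 3, over 135 bases. In LY19WT they reached 7.19 FPKM in replicate 3, over 193 bases, and 6.47 FPKM in replicate 2, over 1511 bases. How far these unnamed rows take reads from the BCL6 row was not tested.

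**Figure D2:**
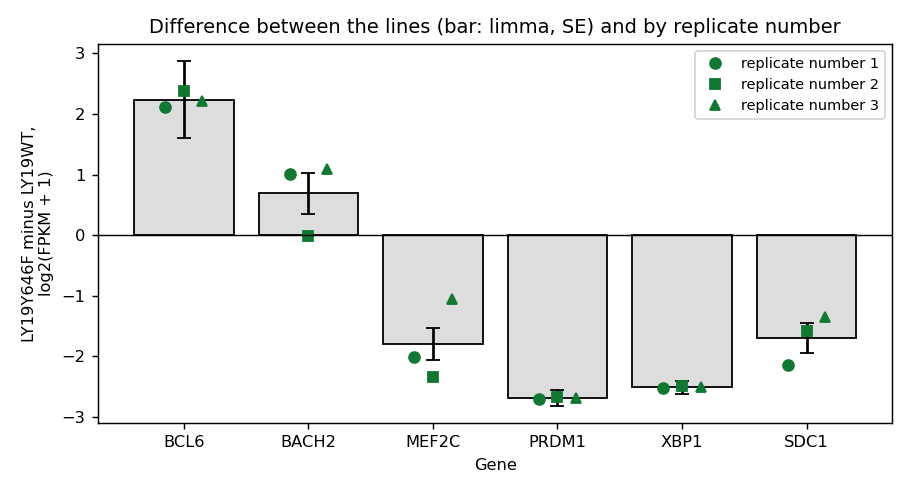
Difference between the lines on the log2(FPKM + 1) scale for the 6 tested genes. Bars and error bars give the limma difference and its SE, and markers give LY19Y646F minus LY19WT for libraries of the same replicate number. BCL6 has a wide SE of 0.637 although its differences by replicate number lie between 2.11 and 2.38, while replicate number 2 of BACH2 lies near 0.

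BACH2 (chromosome 6, 90636248 to 91006627 in 5 libraries), a BTB and leucine zipper repressor that restrains PRDM1, measured 15.1, 16.1 and 18.0 FPKM in LY19WT. In LY19Y646F it measured 31.3, 16.0 and 39.4 FPKM. Replicates 1 and 3 of LY19Y646F lay above all LY19WT libraries and replicate 2 lay among them, so the lines overlapped. The difference of 0.70 (SE 0.339) did not pass, with a limma adjusted p of 0.18 and an exact permutation p of 0.30. Without LY19Y646F replicate 2 the BACH2 difference was 1.06 and passed, with a limma adjusted p of 0.015.

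That library differed in how the locus was assembled. In LY19Y646F replicate 2 an unnamed row of 6810 bases (chromosome 6, 90636257 to 90643066) held 18.2 FPKM at the low-coordinate end of BACH2, which is the 3′ end of this reverse-strand gene. The highest unnamed row inside BACH2 was between 0.376 and 2.15 FPKM in the other 5 libraries. The bounds of Cufflinks for BACH2 were also wide in LY19Y646F: 6.61 to 55.9, 0 to 52.7 and 8.99 to 69.8 FPKM, each covering all the LY19WT values. In LY19WT the bounds spanned at most 14.4 to 18.7 FPKM over the 3 libraries. The part of the unnamed row in the BACH2 level was not tested. The authors' deposited table gives BACH2 16.4 FPKM in LY19WT, against 31.4 FPKM in LY19Y646F.

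**Figure D3:**
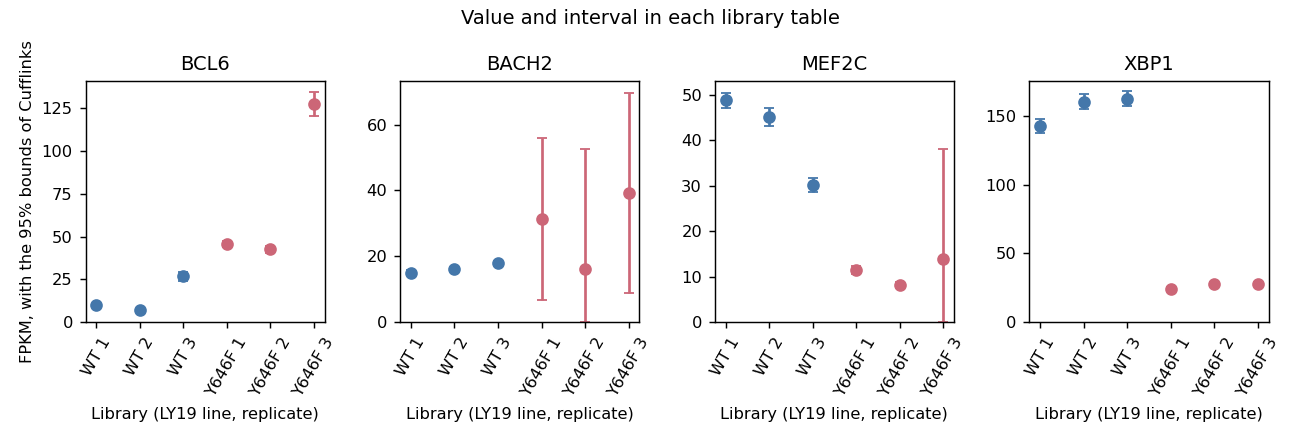
FPKM of 4 genes in each library with the 95% bounds that Cufflinks gave (blue, LY19WT; red, LY19Y646F). The bounds are narrow for XBP1 and BCL6 and wide for BACH2 in the 3 LY19Y646F libraries and for MEF2C in LY19Y646F replicate 3, where they run from 0 to 38.2 FPKM.

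MEF2C (chromosome 5, 88013975 to 88199922), a MADS-box factor needed for B cell proliferation after antigen receptor signalling, measured 48.8, 45.1 and 30.2 FPKM in LY19WT. In LY19Y646F it measured 11.4, 8.13 and 13.98 FPKM. MEF2C was thus lower in all 3 LY19Y646F libraries than in any LY19WT library, 3.70 times lower by the means of 41.4 ± 9.84 and 11.2 ± 2.93 FPKM (SD, n = 3 each). This difference, -1.80 (SE 0.268), had a limma adjusted p of 0.0051, and an exact permutation p of 0.10. The bounds of Cufflinks in LY19Y646F replicate 3 ran from 0 to 38.2 FPKM and covered the lowest LY19WT value, and without that library the difference was -1.96 with a limma adjusted p of 0.012. CTC-467M3.1, whose row overlaps an end of MEF2C, was listed at 0 in LY19WT replicate 1 and measured 23.4 and 26.1 FPKM in replicates 2 and 3, against 6.35, 9.24 and 7.95 FPKM in LY19Y646F.

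MEF2B, the germinal centre member of the same family, could not be separated from its neighbours. Its row (chromosome 19, 19256376 to 19303400) also named MEF2BNB, which encodes a subunit of a lysosome-positioning complex, and the MEF2BNB-MEF2B readthrough in all 6 libraries. The row was listed at 0 in each LY19WT library and held 304, 93.8 and 86.9 FPKM in LY19Y646F. RFXANK, a subunit of the RFX complex at MHC class II promoters, overlaps the high-coordinate end of that row and showed the opposite: 40.3, 21.9 and 23.9 FPKM in LY19WT, against a listed 0 in all LY19Y646F libraries, where replicates 2 and 3 merged it with SLC25A42. The authors' deposited table gives RFXANK 63.2 FPKM in LY19WT, against 69.6 FPKM in LY19Y646F. NR2C2AP, the next gene, was listed at 0 in LY19Y646F replicate 1, the library with the highest MEF2B row, and measured 20.8 and 17.1 FPKM in replicates 2 and 3. A value listed at 0 here can be a failed estimate of a joined locus, so no difference in MEF2B is drawn from these rows.

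**Figure D4:**
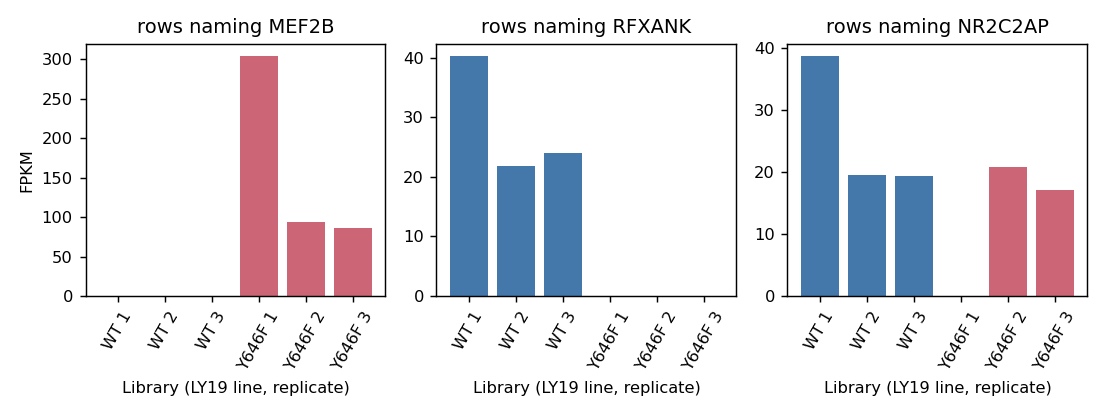
FPKM of the rows that name MEF2B, RFXANK and NR2C2AP in each library (blue, LY19WT; red, LY19Y646F), each panel with its own axis from 0. The MEF2B row has values in the LY19Y646F libraries alone and RFXANK in the LY19WT libraries alone, while the authors' deposited table lists RFXANK at 63.2 and 69.6 FPKM in the lines.

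PRDM1 (chromosome 6, 106534195 to 106557814), the zinc finger repressor that drives plasma cell differentiation, measured 6.18, 6.73 and 5.97 FPKM in LY19WT. In LY19Y646F it measured 0.102, 0.216 and 0.0818 FPKM, and the lower bound of Cufflinks was 0 in all 3. The levels were tight within LY19WT, where the highest was 1.13 times the lowest, and far below it in LY19Y646F. The means differed 47.3 times, a ratio that rests on values near 0 in LY19Y646F. On the log2(FPKM + 1) scale, which understates the fold of low genes, the difference was -2.69 (SE 0.125, limma adjusted p of 8.0e-05; exact permutation p of 0.10). By replicate number the differences were -2.70, -2.67 and -2.69. With a pseudocount of 0.1 in place of 1 the difference was -4.82. In LY19WT replicates 1 and 3 the PRDM1 row began at 106440630 and 106440620, upstream of the start of 106534195 in the other 4 libraries, and in LY19WT replicate 3 an unnamed row of 3632 bases at the 3′ end held 2.26 FPKM.

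XBP1 (chromosome 22, 29190543 to 29196585), the transcription factor whose spliced form activates secretory pathway genes, had the highest level in LY19WT among the 6 genes with rows of their own, at 143, 160 and 162 FPKM. In LY19Y646F it measured 23.96, 27.6 and 27.9 FPKM. XBP1 was lower in each LY19Y646F library, 5.86 times by the means of 155 ± 10.9 and 26.5 ± 2.17 FPKM (SD, n = 3 each). This difference, -2.51 (SE 0.106), had a limma adjusted p of 5.7e-05 and an exact permutation p of 0.10. By replicate number the differences were -2.52, -2.50 and -2.50. No unnamed row lay inside XBP1 in any library. Gene-level FPKM do not separate spliced from unspliced XBP1.

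SDC1 (chromosome 2, 20400558 to 20425194) was the lowest of the separately measured genes in both lines, at 3.79, 2.2005 and 1.65 FPKM in LY19WT. In LY19Y646F it measured 0.0812, 0.0681 and 0.0337 FPKM, each with a lower bound of 0. All LY19WT libraries lay above all LY19Y646F libraries, and 29.1% of tested genes lay below the SDC1 mean in LY19WT. The difference was -1.70 (SE 0.247, limma adjusted p of 0.0047; exact permutation p of 0.10). SDC1 is also an epithelial gene, and the epithelial markers EPCAM, KRT8, KRT18, KRT19 and CDH1 were each under 1 FPKM in every library.

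FPKM is per transcript length, so levels can be set beside each other within a line. In LY19WT the order by mean was XBP1, MEF2C, BACH2, BCL6, PRDM1 and SDC1, and only BACH2 and BCL6 overlapped as neighbours. In LY19Y646F, leaving out the shared row of MEF2B, the order was BCL6, BACH2, XBP1, MEF2C, PRDM1 and SDC1, and only BACH2 and XBP1 overlapped. BCL6 thus stood above 62.1% of tested genes in LY19WT and above 89.2% in LY19Y646F, while PRDM1 stood above 44.6% and 7.19%. XBP1 stood above 95.4% and 74.6%.

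Of the 7 genes 6 stand in the authors' deposited table, made with Cuffdiff, and all 6 have the direction found in the library tables. Its log2 fold changes, made without a pseudocount, are 2.56 for BCL6, 0.93 for BACH2 and -1.61 for MEF2C. For PRDM1, XBP1 and SDC1 that authors' deposited table gives -5.73, -2.54 and -5.30. The log2 ratios of the library means, also without a pseudocount, were 2.30, 0.82, -1.89, -5.56, -2.55 and -5.38 in the same order. Levels differed more than folds. For BCL6 the authors' deposited table gives 25.2 and 148 FPKM, 1.72 and 2.06 times the library means of LY19WT and LY19Y646F. For MEF2C it gives 82.0 and 26.9 FPKM, 1.98 and 2.41 times the library means, over a region 5.16 times as long as the library rows. PRDM1 is listed 1.72 and 1.53 times above its library means in the authors' deposited table. For XBP1 and SDC1 the authors' deposited table lies within 1.19 times of the library means.

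Genes around the switch were counted by lists from general knowledge, chosen with earlier results of these data known and without the 7 genes themselves. Of 21 tested germinal centre regulators and markers 13 were called higher and 1 lower, with a median difference of 1.32. Of all 10663 tested genes 16.7% were higher and 16.5% lower, with a median of -0.033. With the replicate number as a block 14 were higher and 3 lower. IRF8, a factor that supports BCL6 expression, rose from 0.234 ± 0.0284 to 196 ± 60.2 FPKM (SD, n = 3 each), by 7.27 on the log2(FPKM + 1) scale. The transcripts of GCSAM, a germinal centre signalling adaptor, and LRMP, an endoplasmic reticulum membrane protein of lymphocytes, rose by 5.20 and 3.02 on the log2(FPKM + 1) scale. EBF1, a factor of early and mature B cells, fell from 43.5 ± 1.08 to 5.20 ± 0.367 FPKM. SPIB and PAX5 had a shared or a failed row and were not tested. Rows naming PAX5 held 118, 94.9 and 85.7 FPKM in LY19WT, against 35.2, 23.96 and 22.3 FPKM in LY19Y646F, and rows naming SPIB, an ETS factor of B cells, held 17.3 to 35.2 and 24.5 to 79.0 FPKM. The precursor B cell markers given above, 781 to 2345 against 1.76 to 5.73 FPKM in sum, moved with this list.

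Of 12 tested genes known as repressed by BCL6, 6 were lower and 1 higher, beside 16.5% lower and 16.7% higher over the 10663, with a median of -1.35. That median lay between -1.46 and -0.44 over the 15 alternatives, with the value nearest 0 over 16 genes without a filter on low values. With the replicate number as a block 2 were higher and 6 lower. Another 9 genes of the list were not tested. Among these, rows naming IRF4, GPR183 and CCL3 were higher in every LY19Y646F library than in any LY19WT library. Rows naming IRF7, S1PR1 and CCR6 were lower. GPR183, CCL3 and S1PR1 were under 0.5 FPKM in every library, so their order rests on values near 0. IRF4, IRF7 and CCR6 shared a row with other genes in at least 1 library. IRF4 held 0.282 to 0.317 FPKM in LY19WT, against 7.45 to 21.5 FPKM in LY19Y646F. CD80 was listed at 0 in every library, while the authors' deposited table gives it 0.965 and 4.36 FPKM. BCL2, an inhibitor of apoptosis, fell from 44.4 ± 2.29 to 1.27 ± 0.109 FPKM, TNFAIP3, a brake on NF-kB signalling, from 21.3 ± 1.002 to 3.56 ± 0.315 FPKM, and NFKB1, an NF-kB subunit, from 42.6 ± 0.921 to 16.1 ± 1.35 FPKM (SD, n = 3 each). CXCR4, the chemokine receptor of dark zone cells, rose from 51.6 ± 1.03 to 74.4 ± 3.89 FPKM. Of 15 tested partners of BCL6, 3 were higher and 5 lower, or 53.3% called beside 33.2% of the 10663. Their median was -0.092, and it lay between -0.48 over genes alone in their row and 0.17 with merged rows counted. TBL1X and TBL1XR1, both part of the corepressor complex with NCOR proteins, rose from 0.766 to 11.04 and from 32.1 to 69.7 FPKM. MTA3, a subunit of a nucleosome remodelling corepressor, rose by 1.61 on the log2(FPKM + 1) scale. HDAC4, a class IIa histone deacetylase, fell from 3.93 ± 0.380 to 0.237 ± 0.0924 FPKM. RYBP, of Polycomb repressive complex 1, fell by 0.88 on the log2(FPKM + 1) scale. CTBP2, a corepressor that BCL6 binds, measured 18.3, 10.1 and 9.597 FPKM in LY19WT against a listed 0 in all LY19Y646F libraries, and the authors' deposited table gives it 0.133 FPKM in LY19Y646F.

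**Figure D5:**
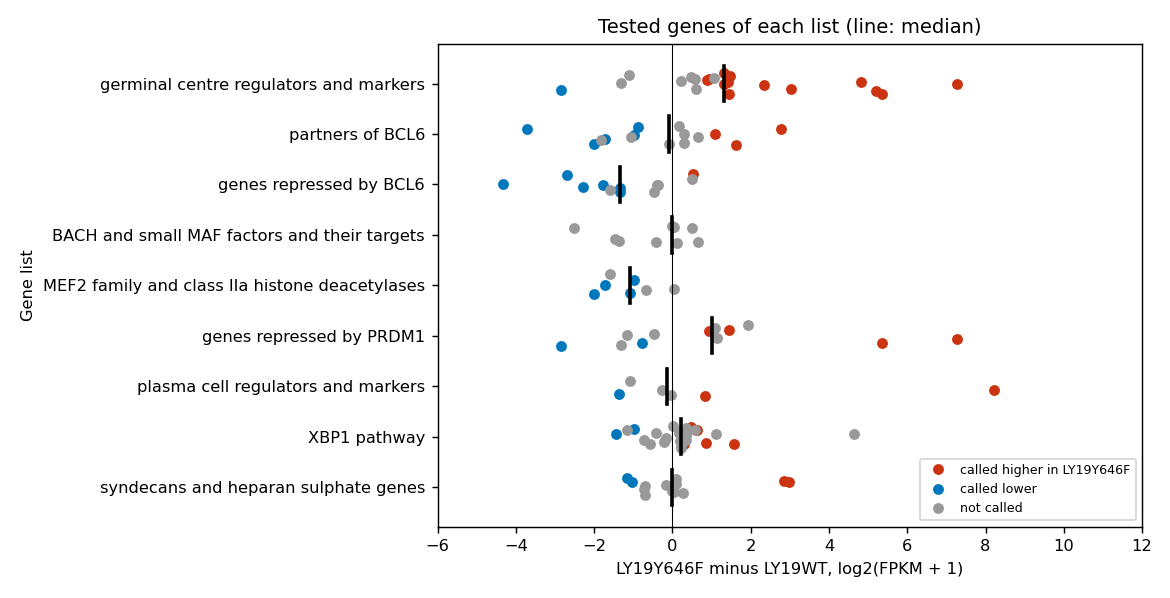
Difference between the lines on the log2(FPKM + 1) scale for each tested gene of 9 lists, coloured by call, with a black line at the list's median. Germinal centre genes have a median of 1.32 and genes repressed by BCL6 a median of -1.35. The medians of the lists of BACH factors and of syndecans lie around 0, although single genes of both lists lie away from it.

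Of 9 tested BACH and small MAF factors and targets 0 were called by limma in either direction, and 1 had an unadjusted p under 0.05. With the replicate number as a block 2 were higher and 1 lower, with library weights 2 were higher, and without LY19Y646F replicate 1 there was 1 higher. BACH1, the paralog of BACH2, measured 9.97 ± 2.32 and 10.1 ± 1.51 FPKM (SD, n = 3 each). Of 7 tested relatives and partners of MEF2, 4 were called, each lower, or 57.1% beside 33.2% of the 10663, with a median of -1.10. HDAC4, HDAC7 and HDAC9 are 3 of these 4 and also 3 of the 5 lower partners of BCL6, so these counts are not separate. Over the 15 alternatives 3 to 6 tested genes of the MEF2 list were lower and 0 higher. MEF2A fell from 30.0 ± 1.52 to 13.5 ± 1.40 FPKM, and HDAC9, a class IIa deacetylase that binds MEF2, from 21.8 ± 3.19 to 10.53 ± 1.63 FPKM. MEF2D measured 46.1, 18.9 and 19.8 FPKM in LY19WT, against 14.4, 5.48 and 6.21 FPKM in LY19Y646F and did not pass (limma adjusted p of 0.061), although its lines did not overlap. The values of MEF2D were highest in replicate 1 of both lines.

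Of 12 tested genes known as repressed by PRDM1, 4 were higher and 2 lower, beside 16.7% higher and 16.5% lower over the 10663, with a median of 1.01. That median was 0.24 over genes alone in their row, 0.41 without LY19Y646F replicate 1, 0.57 without LY19WT replicate 2 and 0.63 with library weights. Of the 12 genes 5 also stand among the 21 germinal centre genes, 3 of them higher and 1 lower. IRF8 rose as given above, and CD79B, the signalling chain of the B cell receptor, rose from 160 ± 18.6 to 309 ± 29.8 FPKM (SD, n = 3 each). EBF1 fell as given above, and SYK, the kinase of that receptor, fell from 37.5 ± 1.64 to 21.3 ± 0.287 FPKM. Of 6 tested plasma cell regulators and markers other than PRDM1, XBP1 and SDC1, 2 were higher and 1 lower, with a median of -0.15 whose sign depended on the setting. It lay between -0.67 over 4 genes with a filter at 2 FPKM and 0.60 over 13 genes, 7 of them higher and 1 lower, when merged rows were counted. It was 0.060 and 0.13 without replicate 1 of LY19WT and of LY19Y646F, -0.39 without LY19WT replicate 3, and -0.30 and -0.38 without LY19Y646F replicates 2 and 3, where 1 gene was higher and 1 lower. CD38, an ectoenzyme high on plasma cells and germinal centre cells, fell from 28.3 ± 2.99 to 10.4 ± 0.851 FPKM. IGJ, the joining chain of polymeric antibody, rose from 0.490 ± 0.221 to 447 ± 83.0 FPKM, and ELL2, an elongation factor for secreted immunoglobulin transcripts, from 0.131 ± 0.00693 to 1.04 ± 0.251 FPKM. IRF4, which induces PRDM1, shared a row with DUSP22 in at least 1 library and was not tested; rows naming it held 0.282, 0.317 and 0.285 FPKM in LY19WT, against 21.5, 7.93 and 7.45 FPKM in LY19Y646F. The authors' deposited table gives IRF4 0.329 and 7.98 FPKM. Rows naming MZB1, a chaperone of immunoglobulin assembly, were merged and ranged from 0 to 156 FPKM within LY19WT. Rows naming TNFRSF17, also merged, held 0.0387, 0 and 0 FPKM in LY19WT, against 7.77, 18.5 and 11.1 FPKM in LY19Y646F. Summed over PRDM1, IRF4, XBP1, SDC1, IGJ, MZB1 and TNFRSF17, merged rows included, FPKM lay between 171 and 309 in LY19WT. In LY19Y646F that sum lay between 467 and 589, of which IGJ alone held 356 to 518 FPKM.

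Most tested genes of the XBP1 pathway did not pass the test. Of 27 genes 5 were higher and 2 lower, or 25.9% called beside 33.2% of the 10663, with a median of 0.22, or 3 higher and 3 lower with quantile scaling. Another 14 genes of the list were not tested. Among these, rows naming CALR, HERPUD1 and PDIA3 were higher in every LY19Y646F library than in any LY19WT library. Rows naming EDEM1 and KDELR2 were lower, and all of these rows were shared with other genes in at least 1 library. HSPA5, the main chaperone of the endoplasmic reticulum, rose from 94.7 ± 6.05 to 298 ± 118 FPKM (SD, n = 3 each), with 431 FPKM in LY19Y646F replicate 3. ERN1, the sensor IRE1 that splices XBP1, rose from 0.414 ± 0.0755 to 1.55 ± 0.145 FPKM and ATF4, a factor of the stress response, from 287 ± 1.86 to 444 ± 13.2 FPKM. SPCS3, a subunit of the signal peptidase, fell from 125 ± 10.96 to 45.2 ± 2.88 FPKM and EDEM3, of the degradation pathway, from 19.4 ± 3.69 to 9.37 ± 2.29 FPKM. Without LY19WT replicate 2, LY19WT replicate 3 or LY19Y646F replicate 3, 3 of the 27 were higher and 1 lower, and without LY19Y646F replicate 1, 8 were higher and 3 lower. With library weights 13 were higher and 4 lower.

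Of 13 tested genes of syndecans and heparan sulphate, 2 were higher and 2 lower, or 30.8% called, near the 33.2% of the 10663. Their median of -0.021 lay between -0.21, with 3 lower, without LY19Y646F replicate 1 and 0.070 with quantile scaling. With library weights 3 were higher and 5 lower. SDCBP, which binds the tails of syndecans, fell from 48.2 ± 4.68 to 21.1 ± 1.19 FPKM, and HPSE, which cleaves heparan sulphate, from 1.17 ± 0.161 to 0.0568 ± 0.0236 FPKM (SD, n = 3 each). NDST1, a sulphotransferase of the chain, rose from 0.143 ± 0.0249 to 8.05 ± 0.791 FPKM. EXT1, a polymerase of the chain, was listed at 0 in each LY19WT library and measured 4.88, 7.40 and 6.42 FPKM in LY19Y646F. The other syndecans SDC2, SDC3 and SDC4 were below 0.5 FPKM in mean and were not tested.

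Genes of like pattern were sought by Pearson's r of log2(FPKM + 1) over the 6 libraries among 8821 genes with at least 2 FPKM in the higher line. Where the lines do not overlap, r carries the difference between them together with any spread within a line. The lines overlap for BACH2, so its r also carries the spread within LY19Y646F, where replicate 2 was low. Each r is given as a description. For PRDM1 the closest were LITAF (r of 0.9997) and CPNE2 (0.9996), and 1052 genes had an r above 0.95. For XBP1 they were TCF4 (0.9997) and ETV6 (0.9997), with 1086 genes above 0.95. BCL6 had 28 genes above 0.95, led by THUMPD3 (0.9871) and HK2 (0.9862). THUMPD3 measured 9.04, 4.21 and 17.1 FPKM in LY19WT, against 28.3, 33.9 and 81.5 FPKM in LY19Y646F, with replicate 3 highest in both lines, as for BCL6. BACH2 was closest to HNRNPA1P2 (0.9910), a pseudogene that can share reads with HNRNPA1, and PEG10 (0.9909), which was listed at 0 in LY19Y646F replicate 2 against 14.5 and 41.4 FPKM in replicates 1 and 3. MEF2C was closest to ZNF330 (0.9924) and UPF3A (0.9913), and SDC1 to PRICKLE3 (0.9993) and GPSM1 (0.9992), both listed at 0 in all LY19Y646F libraries.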

How the data were processed

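RNA of 3 LY19WT and 3 LY19Y646F libraries was sequenced from a single end with 85-base reads, per the labels' protocols. STAR 2.5.3a, Cufflinks 2.2.1 and Cuffdiff 2.2.1 on hg19 are named in the submitters' processing notes. The deposited library tables hold FPKM per locus with 95% bounds, per the file headers, so the authors had scaled each library to its own total. The deposited Cuffdiff table holds 1 FPKM per line from the authors and the log2 of their ratio. Loci were assembled per library, so a gene can share a row or be listed at 0, and 3189 to 3443 rows per library name several genes. Depth per library is unknown: small fragment numbers implied by the bounds were whole within 0.05 for 33.2% to 35.3% of rows, too few to recover reads, so precision rests on 3 libraries per line.

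Rows were joined by symbol. A row counted for a protein-coding gene when no other protein-coding gene was named in it (types from GENCODE, with RefSeq synonyms), and genes with a shared or failed row were left out. Genes averaging 0.5 FPKM or more over the 6 libraries were tested with limma 3.58.1 in R 4.3.3 on log2(FPKM + 1), LY19Y646F minus LY19WT, two-sided, with Benjamini-Hochberg adjustment over 10663 genes. The fit was tested on simulated data. Python 3.11.15, pandas 2.3.3, numpy 2.4.6 and matplotlib 3.10.9 were used for joins, exact permutation tests and plots. Coordinates from the files are on hg19, counted from 1, and promoter sequences are from RefSeq on GRCh38.p14.

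The genes and lists were chosen with earlier results of these data known. Named genes are the 7, then up to 3 called genes per direction and list with the smallest adjusted p, a fixed set (IRF4, IRF8, SPIB, PAX5, MEF2A, MEF2D, BACH1, ERN1, HSPA5, CD38, MZB1) and the 2 closest patterns per gene. Some genes that this rule names are not reported here. Replicate numbers come from the titles. Deviations from the line means of same-numbered libraries correlated across genes at 0.27, 0.11 and 0.13 for numbers 1, 2 and 3. The other pairs lay between -0.19 and 0.10, the highest being LY19WT replicate 3 with LY19Y646F replicate 2, close to the matched value of 0.11. Deviations within a line are bound by its mean, so these correlations depend on each other. They do not settle whether numbers 2 and 3 pair the libraries. The main fit used no pairing, and the fit with the replicate number as a block is an alternative.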

Additional observations from a re-analysis of the deposited data

Results flagged for a closer look

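Signals in rows outside the tested genes were above the LY19WT level in 4 places. The merged row naming MEF2B averaged 161.7 FPKM in LY19Y646F and was listed at 0 in each LY19WT library, where 0 can be a failed estimate of a joined locus. Rows naming RP11-211G3.2 across BCL6 averaged 4.78 FPKM in LY19Y646F and were listed at 0 in LY19WT. An unnamed row inside BCL6 held 37.7 FPKM in LY19Y646F replicate 3, where the highest such row in LY19WT held 7.19 FPKM. An unnamed row at the 3′ end of BACH2 held 18.2 FPKM in LY19Y646F replicate 2, where the highest unnamed row inside BACH2 in LY19WT held 0.781 FPKM. Groups of 3 libraries were too small for a check of single outlying libraries.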

How the results depend on the processing

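MEF2C, PRDM1 and XBP1 were called lower under each of 15 alternatives, and SDC1 under each of the 14 that could test it (it fell below a filter at 2 FPKM). BCL6 kept its direction under all 15 and its call under 7. The BCL6 difference of 2.24 was no longer called without a filter on low values (2.24, adjusted p 0.076), when merged rows counted for all genes in them (2.24, 0.062) and with quantile scaling (2.21, 0.051). The first 2 of these test more genes, and their SE for BCL6 was 0.639 and 0.649 beside 0.637 in the main fit. The cause of the lost call was not tested for any of these settings. Leaving out a library moved BCL6 between 1.73 and 2.75 and BACH2 between 0.43 and 1.06. BACH2 passed only without LY19Y646F replicate 2. Of the 6 tested genes 4 or 5 were called under the alternatives. With library weights 5749 genes were called, 2916 higher and 2833 lower, in place of 3545, 1782 and 1763, and the cause was not tested. Leaving out a library gave 2682 to 4002 calls. In the fit with the replicate number as a block BCL6 had a difference of 2.24, SE 0.0896, adjusted p 0.0029, MEF2C 0.029, PRDM1 0.0028, XBP1 0.0021, SDC1 0.017 and BACH2 0.16. The block changed no call of these genes. With merged rows counted, the row of MEF2B differed by 7.09 (limma adjusted p of 0.00064), against libraries listed at 0. Such a 0 can be a failed estimate, so no difference in MEF2B is drawn from this fit. Depth per library is unknown, and PRDM1 and SDC1 in LY19Y646F are at levels whose bounds reach 0.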
